A study of Bos taurus with 6 samples.

Results

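In 29 bovine genes, the transcript of highest mean level differed between the testis of immature calves and that of mature bulls. The genes were chosen by their transcript levels in these libraries. A gene was kept where the transcript with the highest mean in calf 1 and calf 2 was not the transcript with the highest mean in the 3 bulls. Each of the 2 forms also had to reach 10 FPKM (a level of fragments corrected for transcript length and for the number mapped in a library) in its own group and to be at least 4 times the other form there. The former is called the calf form below and the latter the bull form. Of the 47249 genes in the table of 108527 transcripts, 27607 carried an Ensembl identifier, 13305 of these had at least 2 transcripts, and in 1956 the most abundant transcript reached 10 FPKM in both groups. The 29 genes were 1.48% of those 1956. Another 92 genes also had a different most abundant transcript in each group but missed the 4 times limit, and 1835 kept the same one. The levels, the shares and the gene totals of these 29 genes all rest on the values that chose them. They are therefore given as a description, without a test.

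A single gene can give rise to several RNA forms when transcription starts at another promoter, when exons are joined differently, or when the RNA is cut and polyadenylated at another site. Such forms can encode different proteins, or the same protein with different untranslated regions that govern translation and stability. The testis is known for a wide use of alternative promoters, exons and polyadenylation sites, and spermatids in particular use testis-specific promoters and short 3′ untranslated regions.

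The libraries were made from untreated Wandong cattle and are labelled as testis tissue of 3 calves aged 3 months and of 3 bulls aged 3 years, with 1 library per animal. The calves are termed immature and the bulls mature, and total RNA was depleted of ribosomal RNA before libraries that keep the strand were made. The summed FPKM values of the libraries lay between 587066 and 1098720. The library labelled calf 3 stood apart. Its transcript levels correlated with those of calf 1 and calf 2 at an r of 0.796 and 0.799, against 0.959 between calf 1 and calf 2 and 0.936 to 0.938 among the bulls, over all transcripts on the log2(FPKM + 1) scale. The 8 brain markers of a fixed list summed to 13684 FPKM in it against 10.5 and 10.9 in calf 1 and calf 2, while the Sertoli cell genes FSHR, GATA4 and WT1 and the Leydig cell genes CYP11A1 and CYP17A1 were listed at 0. The label of calf 3 is therefore in doubt, the rule did not use that library, and its values are printed beside those of the calf and bull forms.

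The levels of cell type markers differed between the groups. All 7 spermatocyte markers and all 10 spermatid markers were higher in every bull than in calf 1 and calf 2. The spermatid markers summed to 12.3, 14.1 and 9.96 FPKM in calf 1, calf 2 and calf 3 and to 16031, 14707 and 14443 FPKM in the bulls, with ODF1 listed at 0 in calf 1 and ACRV1 in calf 2. The spermatocyte markers summed to 17.8, 25.1 and 2.71 FPKM in the calves and to 336, 420.5 and 358 FPKM in the bulls. The 7 Sertoli cell markers summed to 1787, 1475 and 444 FPKM in the calves and to 186, 201 and 221 FPKM in the bulls, with 6 lower and 1 higher in every bull than in calf 1 and calf 2. The 6 spermatogonia markers summed to 105, 126 and 233 FPKM in the calves and 104 to 112 FPKM in the bulls. Of them, 5 were lower in every bull than in calf 1 and calf 2 and 1 was higher. In calf 3, 5 of the 7 Sertoli cell markers and 2 of the 6 spermatogonia markers were under 1 FPKM. Its sums for these lists thus rest on the other markers and, with its label in doubt, are not read as content of these cells. The 6 Leydig cell markers summed to 1406, 1141 and 0.502 FPKM in the calves and to 2162, 1465 and 2738 FPKM in the bulls. Of these, 2 were higher and 0 lower in every bull than in calf 1 and calf 2. Of 4 peritubular myoid cell markers, 2 were higher and 1 lower in every bull. In bulk tissue, fewer cells of a type and less RNA per cell cannot be told apart, and the part of cell makeup in the change of form was not tested.

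The change of form was close to complete in most of the 29 genes. The rule set part of this, since it asked for at least 4 times between the forms in the means of calf 1 and calf 2 and of the bulls. Of the summed FPKM of the 2 forms, the bull form took a median of 1.12% in calf 1, 0.585% in calf 2, 95.1% in bull 1, 93.7% in bull 2 and 92.9% in bull 3. These shares do not depend on the scaling of a library, because both forms were read in the same one. The bulls were close to each other, with a median SD of 1.14 percentage points over the 3 animals (n = 3) and an SD under 5 points in 25 genes. Calf 1 and calf 2 differed by a median of 0.228 points and by less than 5 points in 21 genes. The rule set part of this closeness too, since its limit keeps most shares near an end of the scale, where little spread is possible. In 26 of the 29 genes the calf form was the higher in both calf 1 and calf 2 and the bull form in each bull, and in 22 the difference was at least 4 times in each of these 5 libraries. The order failed in MGC148714, PRPS2 and PCCB, where the mean of the calves rested on 1 animal.

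**Figure D1:**
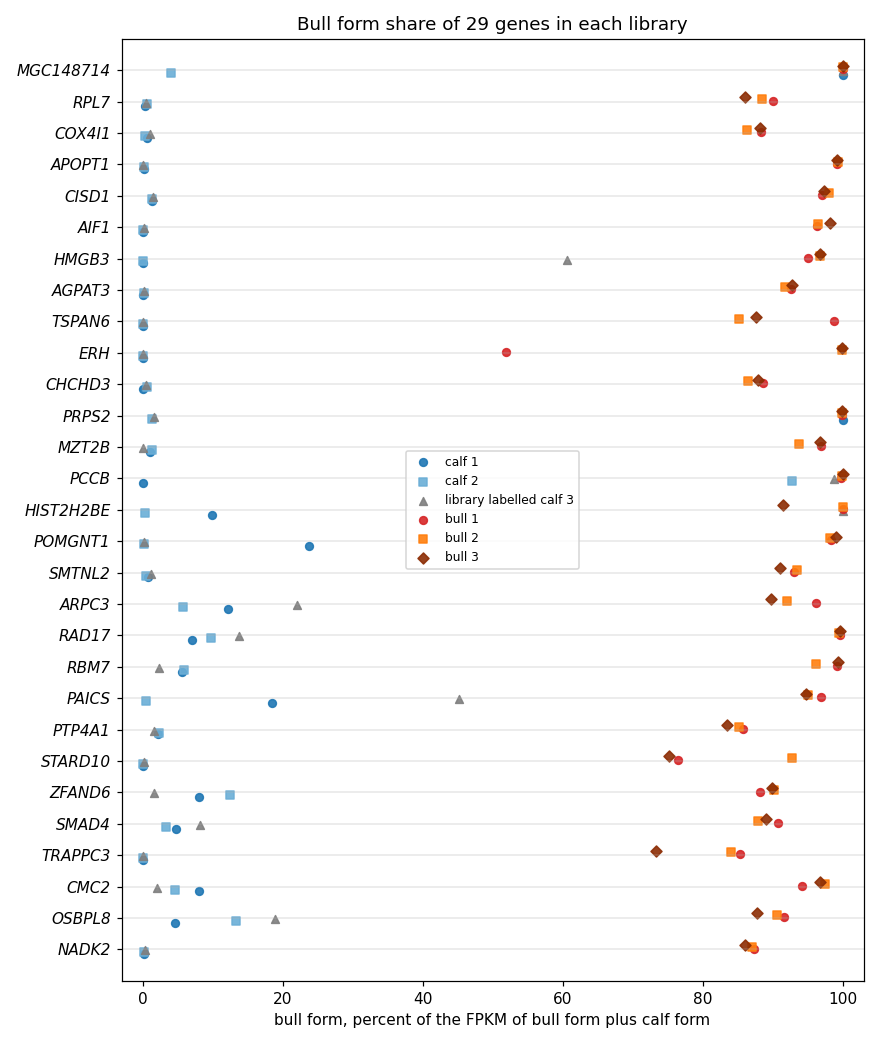
Share of the bull form in the summed FPKM of the 2 forms (x axis, percent) for each of the 29 genes (y axis), with 1 point per library. Most points of calf 1 and calf 2 lie near 0 and most of those of the bulls above 80, while MGC148714, PRPS2 and PCCB each have a calf among the bulls.

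Calf 3 was not used in the choice, so the order of the 2 forms in it is an independent reading, though of a library whose label is in doubt. Its median share of the bull form was 1.52%. The calf form was the higher in 25 of the 29 genes (86.2%), and the bull form in MGC148714, HMGB3, PCCB and HIST2H2BE. This order concerns the pair only. In HIST2H2BE, PCCB, ERH and PAICS a further transcript was above both forms in calf 3. The bull form of HIST2H2BE was at only 0.558 FPKM there. Among the 92 genes that missed the 4 times limit, calf 3 had the calf form higher in 63 (68.5%). Of the testis markers of calf 3, 9 of 10 for spermatids, 6 of 7 for spermatocytes and 2 of 6 for spermatogonia were under 1 FPKM. So were 5 of 7 for Sertoli cells, 6 of 6 for Leydig cells and 1 of 4 for peritubular myoid cells. In calf 1 and calf 2 together, the numbers were 8, 2 and 1 for the germ cell lists and 0 for each of the other lists.

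By the known role of their products, grouped once the members were known, 7 were mitochondrial (COX4I1, APOPT1, CMC2, CISD1, CHCHD3, PCCB and NADK2), 6 belonged to lipids, membranes and glycosylation (AGPAT3, OSBPL8, STARD10, TRAPPC3, TSPAN6 and POMGNT1) and 6 to the nucleus (HMGB3, HIST2H2BE, ERH, RBM7, RAD17 and SMAD4). Another 3 served the ribosome or nucleotide synthesis (RPL7, PRPS2 and PAICS), 3 the cytoskeleton (ARPC3, MZT2B and SMTNL2), and 4 were placed in no such group (PTP4A1, ZFAND6, AIF1 and MGC148714). They lay on 18 chromosomes, with 3 on the X chromosome (HMGB3, TSPAN6 and PRPS2) and 3 on chromosome 3. Values below are FPKM in the order calf 1, calf 2, calf 3 and bull 1, bull 2, bull 3. Names with a number after a dash are Ensembl transcripts, and a form called assembled was put together from the reads by the authors and has no Ensembl identifier.

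Among the mitochondrial genes, 3 concern cytochrome c oxidase, the last enzyme of the respiratory chain. COX4I1 encodes a subunit of it. Its calf form COX4I1-202, on chromosome 18 from 11759871 to 11767078, was at 156, 194 and 148 in the calves and 41.7, 45.4 and 39.6 in the bulls. Its bull form COX4I1-201, from 11758912 to 11767078, was at 1.11, 0.632 and 1.58 in the calves and 315, 287 and 296 in the bulls. Both forms were thus read in the bulls, where the bull form held 87.6% ± 1.11 (SD, n = 3) of the pair, and the groups did not overlap in either form. APOPT1, now named COA8, encodes an assembly factor of the same enzyme. APOPT1-201 was at 12.4, 13.4 and 12.7 in the calves and 0.381, 0.414 and 0.529 in the bulls, and an assembled bull form at 0.0297, 0.0339 and 0.0156 against 51.4, 60.9 and 65.8. The bull form of APOPT1 reached 3486 bases beyond the calf form at its lower coordinate. CMC2 encodes another protein for the assembly of the enzyme. CMC2-201 was at 11.9, 11.5 and 27.0 in the calves and 0.609, 0.335 and 0.277 in the bulls, and its assembled bull form at 1.05, 0.561 and 0.570 against 9.86, 13.1 and 8.37. CMC2 was less clear than the other two, since its bull form held 46.9% of the gene in the bulls and further assembled transcripts held much of the rest.

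CISD1 encodes an iron-sulfur protein of the outer mitochondrial membrane and had the highest ratio of gene totals among the members, 23.4 times the mean of calf 1 and calf 2. CISD1-201, on chromosome 26 from 745915 to 764085, was at 14.1, 18.1 and 39.7 in the calves and still at 11.6, 6.73 and 10.4 in the bulls. An assembled form that ended at 759944, 4141 bases short of CISD1-201, was at 0.185, 0.237 and 0.613 in the calves and at 394, 335 and 384 in the bulls. In CISD1 the bull form was thus added to a calf form that stayed at 0.596 times its calf level. CHCHD3, a protein that shapes the folds of the inner membrane, had a bull form that left out 183749 bases of the locus at its upper coordinate. CHCHD3-201 was at 33.4, 35.7 and 19.0 in the calves and 8.56, 10.3 and 8.81 in the bulls, and the assembled bull form at 0.00278, 0.234 and 0.0907 against 66.6, 66.3 and 63.8. NADK2, the NAD kinase of mitochondria, also had a shorter bull form, but the bases left out lay at its lower coordinate. NADK2-202 was at 9.89, 10.8 and 8.67 in the calves and 2.12, 2.04 and 2.16 in the bulls, and an assembled form shorter by 19309 bases at 0.0185, 0.0188 and 0.0333 against 14.6, 13.7 and 13.4.

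PCCB, a subunit of propionyl-CoA carboxylase, rested on calf 1. PCCB-201 was at 28.2 in calf 1, 0.0451 in calf 2 and 0.0781 in calf 3, and at most 0.0194 in the bulls. PCCB-204 was at 0.0207, 0.577 and 6.18 in the calves and 10.9, 11.8 and 13.0 in the bulls. In calf 2 a further transcript, PCCB-203, was the most abundant at 22.7, and it was read in the bulls at 5.17, 7.20 and 6.98. The 2 calves therefore did not share 1 calf form of PCCB, whereas the bulls shared the bull form.

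**Figure D2:**
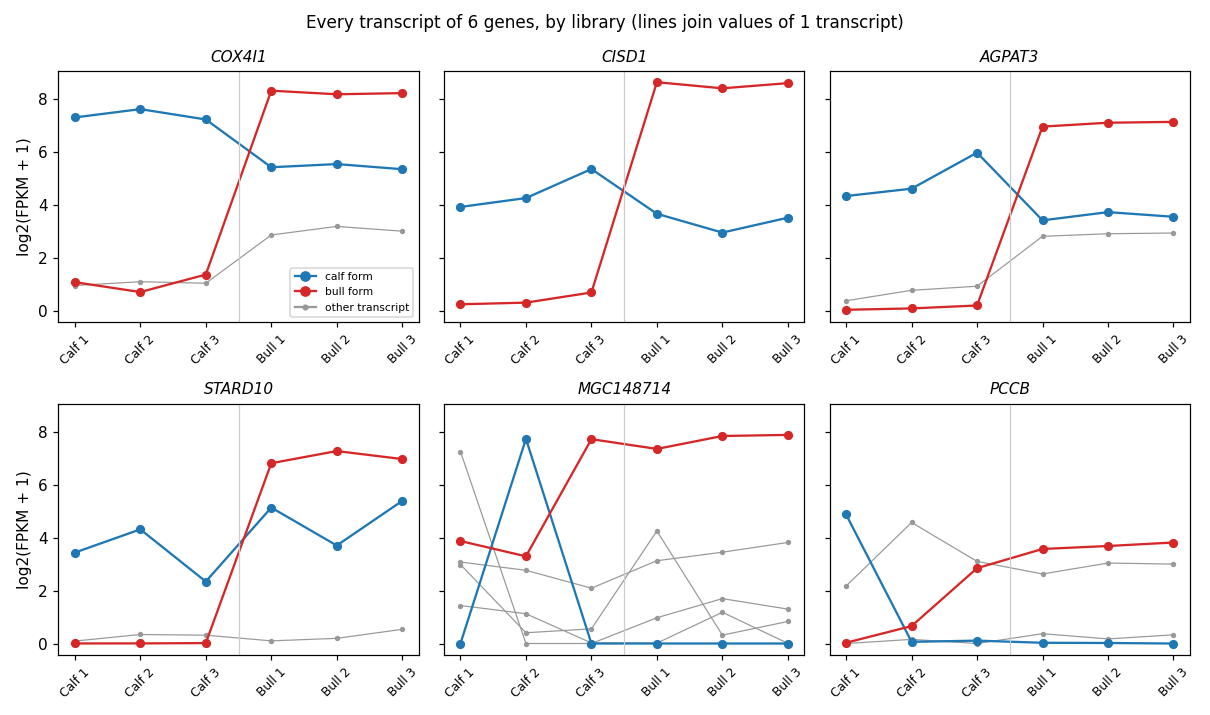
Level of every transcript of COX4I1, CISD1, AGPAT3, STARD10, MGC148714 and PCCB (y axis, log2(FPKM + 1)) in each library (x axis), with the calf form in blue, the bull form in red and other transcripts in grey. The bull forms of the first 4 genes are near 0 in the calves and high in the bulls, while the calf forms of MGC148714 and PCCB are each high in 1 calf alone.

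The genes of lipids, membranes and glycosylation held several bull forms that were near 0 in the calves. AGPAT3 encodes an acyltransferase of phospholipid synthesis. AGPAT3-201, on chromosome 1 from 143941826 to 144025795, was at 19.1, 23.4 and 61.5 in the calves and 9.64, 12.2 and 10.7 in the bulls. AGPAT3-203, which covers the locus from 143996689 to 144025709 and so lacks 54863 bases at the lower coordinate, was at 0.0261, 0.0631 and 0.148 against 123, 136 and 139. STARD10, a phospholipid transfer protein, was the one member whose calf form was also at least 2 times higher in the bulls. STARD10-202 was at 9.79, 18.8 and 4.06 in the calves and 34.0, 12.0 and 40.7 in the bulls, so the groups overlapped, and STARD10-201 at 0.00163, 0.00286 and 0.0109 against 111, 153 and 124. TSPAN6 encodes a tetraspanin. TSPAN6-201 was at 28.0, 25.0 and 12.9 in the calves and 0.821, 11.2 and 10.4 in the bulls, and TSPAN6-203 was listed at 0 in the 3 calves and at 67.5, 64.3 and 74.5 in the bulls. Bull 1 differed from the other bulls in the calf form of TSPAN6, not in the bull form.

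POMGNT1 is an enzyme of O-mannosyl glycosylation. POMGNT1-202 was at 10.8, 14.5 and 11.3 in the calves and 0.647, 0.602 and 0.317 in the bulls, and POMGNT1-201 at 3.38, 0.0205 and 0.0175 against 39.0, 33.2 and 33.4. Calf 1 was the one calf with a sizeable share of the bull form, 23.8%. TRAPPC3, a subunit of a complex that tethers vesicles, lay closest to the limit of 4 times among the members. TRAPPC3-202 was at 11.4, 15.0 and 18.9 in the calves and 10.3, 10.8 and 17.0 in the bulls, and TRAPPC3-201 was listed at 0 in the 3 calves and at 60.0, 57.0 and 46.8 in the bulls. The calf form of TRAPPC3 was thus kept and the bull form came on top of it. In OSBPL8, a member of the oxysterol binding protein family, the 2 forms differed by 145 bases at the lower coordinate. OSBPL8-202 was at 29.7, 20.1 and 27.5 in the calves and 2.81, 2.81 and 3.27 in the bulls, and OSBPL8-205 at 1.45, 3.09 and 6.42 against 31.1, 27.1 and 23.4.

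Of the nuclear genes, HMGB3 encodes a high mobility group protein of chromatin and was one of 3 members whose gene total was at most 0.5 times the calf level. HMGB3-202 was at 30.3, 38.1 and 1.97 in the calves and 0.533, 0.389 and 0.394 in the bulls, and HMGB3-201 was listed at 0 in calf 1 and calf 2, at 3.05 in calf 3 and at 10.3, 12.0 and 11.9 in the bulls. The gene total was 0.346 times that of calf 1 and calf 2, with the bull form below the level the calf form had in the calves. RAD17 loads the checkpoint clamp onto damaged DNA. RAD17-201 was at 12.5, 12.4 and 6.31 in the calves and at most 0.0820 in the bulls, and an assembled bull form at 0.942, 1.33 and 1.01 against 12.6, 17.7 and 13.0. That form held 44.2% of the RAD17 total in the bulls, the lowest value among the members, and other assembled transcripts held the rest. RBM7 is a subunit of a complex that directs nuclear RNA to the exosome. RBM7-201 was at 12.0, 14.9 and 5.80 in the calves and 0.105, 0.362 and 0.0842 in the bulls, and an assembled form at 0.718, 0.929 and 0.143 against 13.0, 9.21 and 12.0. The RBM7 total was almost level, at 1.02 times. SMAD4, the SMAD shared by TGF-beta and BMP signalling, was also close to level at 0.846 times. Its assembled calf form was at 17.3, 16.9 and 9.01 in the calves and 1.47, 1.93 and 1.56 in the bulls, and SMAD4-203 at 0.857, 0.589 and 0.806 against 14.4, 14.1 and 12.6.

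ERH, a small nuclear protein that binds RNA processing factors, and the histone gene HIST2H2BE were less firm. Both forms of ERH were assembled, and their ends differed by 11 bases. The calf form was at 18.0, 17.8 and 7.03 in the calves and 4.47, 0.0185 and 0.0217 in the bulls, and the bull form was listed at 0 in the 3 calves and at 4.83, 40.1 and 40.9 in the bulls. In bull 1 a further assembled transcript with almost the same ends was at 28.8 and listed at 0 in the other libraries, so the bulls did not share 1 form of ERH. HIST2H2BE, now named H2BC21, encodes a histone H2B, and 7 RefSeq genes, most of them histone genes, lie within its locus. Its assembled calf form was at 54.7, 44.8 and 0 in the calves and 0, 0 and 2.24 in the bulls, and its assembled bull form at 6.01, 0.143 and 0.558 against 25.9, 5.96 and 23.95. A further transcript, HIST2H2BE-201, was at 39.0, 41.0 and 10.6 in the calves and 16.0, 15.5 and 14.4 in the bulls. It was the most abundant transcript of the gene in calf 3 and in bull 2. Histone genes are near-identical copies of each other, so reads could be split among them and the values of HIST2H2BE are uncertain.

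RPL7, a protein of the large ribosomal subunit, had the lowest ratio of gene totals. RPL7-201, on chromosome 14 from 36623520 to 36627029, was at 1087, 1047 and 205 in the calves and 10.9, 12.3 and 14.8 in the bulls. An assembled form from the same lower coordinate to 36655224 was at 4.55, 6.16 and 1.06 in the calves and 99.2, 94.8 and 91.9 in the bulls. The RPL7 total was 0.101 times that of calf 1 and calf 2, with the short form lower by far more than the long form was higher. Ribosomal protein genes have many processed copies in mammalian genomes, and how the authors assigned reads shared with them is not given in the sources used here. PAICS catalyses steps of purine synthesis. PAICS-203 was at 19.4, 33.3 and 7.36 in the calves and 0.454, 1.09 and 0.740 in the bulls, and PAICS-201 at 4.40, 0.187 and 6.07 against 14.2, 20.9 and 13.5. In calf 3 a further transcript, PAICS-202, was the most abundant at 17.9. PRPS2, which makes the phosphoribosyl donor for nucleotides, rested on calf 2. PRPS2-203 was listed at 0 in calf 1, at 37.2 in calf 2 and at 3.59 in calf 3, and at most 0.00159 in the bulls, and PRPS2-201 was at 1.82, 0.510 and 0.0603 against 18.4, 20.3 and 19.4.

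In the cytoskeleton group, ARPC3 is a subunit of the Arp2/3 complex, which branches actin filaments. ARPC3-202 was at 50.8, 58.1 and 51.4 in the calves and 3.30, 6.27 and 8.24 in the bulls, and ARPC3-201 at 7.08, 3.60 and 14.5 against 82.9, 72.4 and 72.5. The ends of the 2 ARPC3 forms differed by 248 and 187 bases. SMTNL2, a smoothelin-like protein, had an assembled bull form that left out 10546 bases at the upper coordinate. SMTNL2-201 was at 9.26, 14.3 and 4.24 in the calves and 1.95, 1.84 and 2.25 in the bulls, and the assembled form at 0.0683, 0.0736 and 0.0520 against 26.3, 26.4 and 22.8. MZT2B encodes a mitotic spindle organizing protein. MZT2B-201 was at 22.9, 18.9 and 2.60 in the calves and 0.386, 0.427 and 0.566 in the bulls, and an assembled form at 0.259, 0.250 and 0 against 12.1, 6.39 and 17.0.

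Of the other members, PTP4A1 encodes a prenylated protein tyrosine phosphatase. PTP4A1-201 was at 15.8, 27.4 and 34.2 in the calves and 6.78, 6.58 and 7.30 in the bulls, and PTP4A1-202 at 0.365, 0.663 and 0.566 against 40.9, 37.9 and 37.1. ZFAND6 encodes a zinc finger protein that binds ubiquitin. ZFAND6-201 was at 64.6, 80.2 and 24.4 in the calves and 13.6, 12.8 and 12.7 in the bulls, and ZFAND6-202 at 5.66, 11.5 and 0.410 against 102, 119 and 114. In both genes the lower coordinates of the forms lay close together, 410 bases apart in PTP4A1 and 95 in ZFAND6. AIF1 encodes a calcium binding protein of macrophages. AIF1-201 was at 19.5, 9.88 and 20.8 in the calves and 4.08, 3.25 and 3.05 in the bulls, and an assembled form was listed at 0 in calf 1 and calf 2, at 0.0550 in calf 3 and at 109, 90.9 and 164 in the bulls. The gene total of AIF1 was 8.27 times higher in the bulls, and the added level lay in a transcript that runs 2816 bases beyond the Ensembl form.

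MGC148714 carries no protein name in the table, and no RefSeq symbol matched its name. RefSeq places LOC132342150, VPS13B and COX6C, a further subunit of cytochrome c oxidase, at its locus. Its assembled calf form was at 210.3 in calf 2 and listed at 0 in the other libraries, and MGC148714-201 was at 13.6, 8.79 and 209 in the calves and 161, 227 and 233 in the bulls. Calf 1 had instead an assembled transcript with the same ends as that of calf 2, at 151. The total of the gene was 1.11 times higher in the bulls. Calf 1 and calf 2 thus had 1 locus under 2 transcript names, so MGC148714 rested on calf 2 as listed, and it also passed once transcripts with the same ends were summed.

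**Figure D3:**
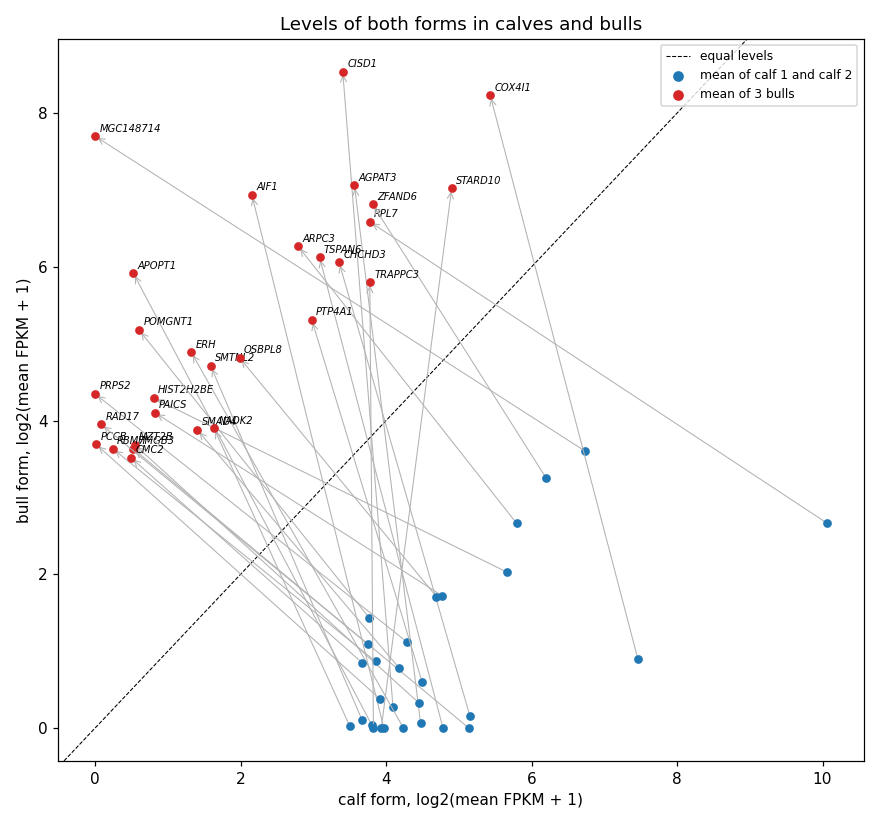
Level of the calf form (x axis) and of the bull form (y axis), both as log2(mean FPKM + 1), with an arrow from the mean of calf 1 and calf 2 (blue) to the mean of the 3 bulls (red) for each gene. Every arrow crosses the dashed line of equal levels, as the rule required, and the arrows of CISD1, AGPAT3, TRAPPC3 and STARD10 run almost straight up or to the right because the calf form stayed.

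Across the members, the calf form was lower in the bulls more often than it was lost. Its mean in the bulls was at most 0.5 times that in calf 1 and calf 2 in 25 genes and at most 0.1 times in 15. It lay between 0.5 and 2 times in CISD1, AGPAT3 and TRAPPC3, and above in STARD10. In 17 genes the calf form was still at 1 FPKM or more in the bulls, and in 6 at 10 FPKM or more. The bull form was under 1 FPKM in the mean of calf 1 and calf 2 in 19 genes and listed at 0 in both in AIF1, HMGB3, TSPAN6, ERH and TRAPPC3.

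The total of a gene was the sum of the listed transcripts in 29 of 29 genes (tolerance 0.001 FPKM). It was at least 2 times higher in the bulls in 11 genes (37.9%), against 23.7% of the 1956 genes, and at most 0.5 times in RPL7, HMGB3 and HIST2H2BE (10.3%), against 12.2%. In the remaining 15 genes the total lay between those limits while the leading transcript changed. The median ratio was 1.54 over the members and 1.15 over the 1956 genes, and the range over the members was 0.101 to 23.4. The members had a median of 4 transcripts (range 2 to 8), against 3 in the 1956 genes. The leading form held a median of 89.4% of the gene in calf 1 and calf 2 (range 51.2% to 100%) and of 87.2% in the bulls (range 44.2% to 98.0%), and in 17 genes the 2 forms held at least 90% of the gene in both groups.

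At the limit of the rule, the smaller of the ratios in the 2 groups was 4.30 in TRAPPC3, 4.46 in STARD10 and 5.61 in PTP4A1 among the members. Just outside it were NID2 at 3.95, DGCR6L at 3.58 and TGFBR3 at 3.50. The forms of NID2, a basement membrane protein, were at 16.0 and 0.0204 FPKM in calf 1 and calf 2 and at 3.90 and 15.4 FPKM in the bulls, much like those of members.

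The positions of the forms were not used in the choice. With a tolerance of 100 bases, 21 of the 29 pairs (72.4%) differed at a single end of the locus, 12 at the lower and 9 at the upper coordinate. Another 6 pairs (20.7%) differed at both ends, and ERH and ZFAND6 (6.90%) shared both. Among the 92 genes that missed the 4 times limit, 42 (45.7%) differed at a single end, 23 (25.0%) at both and 27 (29.3%) at neither. The bull form covered a longer stretch of the genome in 16 members and a shorter one in 11, and in the 2 that shared both ends the stretch was the same within the tolerance. The table gives neither the strand of a gene nor its exons, so a difference at the lower or upper coordinate could not be assigned to the start or to the end of transcription.

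**Figure D4:**
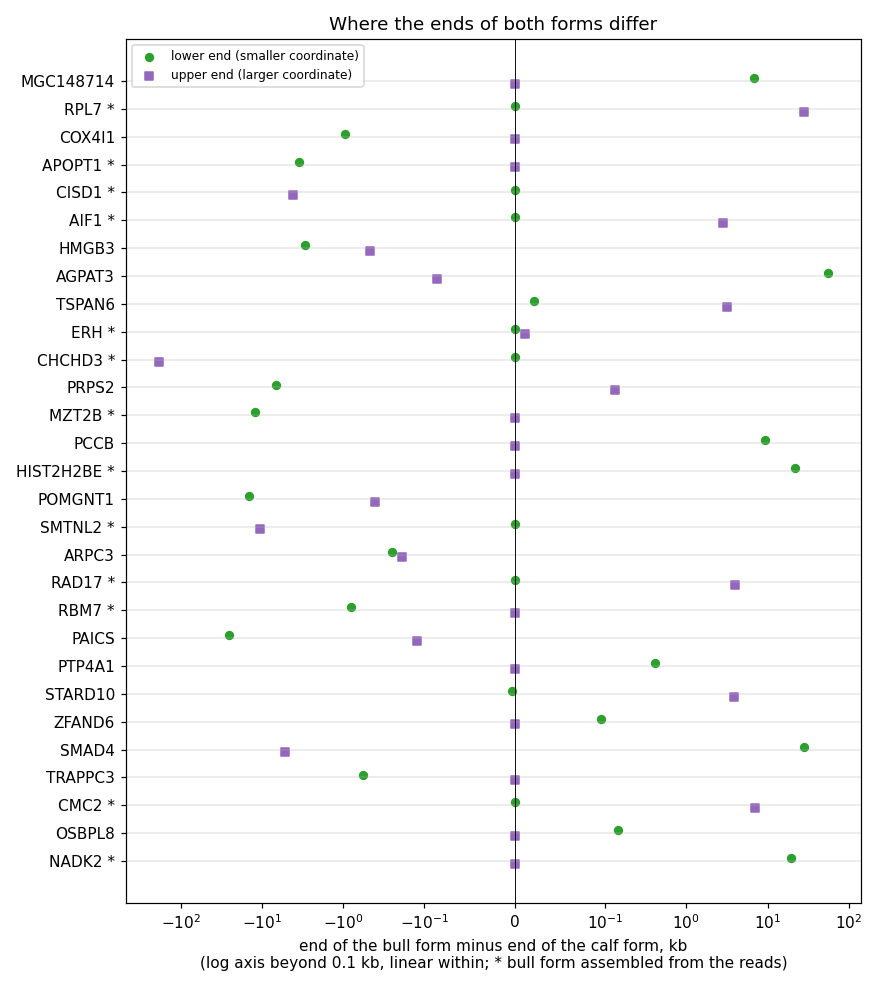
End of the bull form minus end of the calf form at the lower (green) and the upper (purple) coordinate (x axis, kb, on a log axis beyond 0.1 kb) for each of the 29 genes (y axis), with an asterisk where the bull form was assembled. Most genes have 1 end at 0 and the other away from it, the farthest in CHCHD3 at 183749 bases.

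Bull forms were often transcripts without an Ensembl identifier. The bull form was assembled in 13 of the 29 genes (44.8%), against 28.3% of the 92 genes and 4.86% of the leading transcripts of bulls over the 1956 genes. The calf form was assembled in 4 (13.8%), against 10.9% and 3.58%. In 14 members (48.3%) both forms were Ensembl transcripts. Whether an assembled transcript is a single RNA molecule was not tested.

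In 9 members (31.0%) the stretch covered by the bull form alone overlapped another Ensembl gene, against 7 of the 92 genes (7.61%). These were RPL7 with RDH10, COX4I1 with EMC8, AIF1 with LTB, MZT2B with ENSBTAG00000038258, POMGNT1 with LURAP1, RAD17 with AK6 and TAF9, RBM7 with C15H11orf71, PAICS with PPAT, and CMC2 with CENPN. The listed loci of EMC8, LTB, AK6, LURAP1 and, at its end, C15H11orf71 also overlapped the calf form of their member. For these genes the overlap was therefore not particular to the bull form. Of all neighbours on the bull stretches, 5 had much higher means in the bulls. ENSBTAG00000038258 was at a mean of 9.52 FPKM in calf 1 and calf 2 and 343 in the bulls, C15H11orf71 at 3.13 and 238, EMC8 at 14.9 and 72.0, TAF9 at 3.07 and 30.8, and CENPN at 2.15 and 13.2. AK6 differed less, at 25.7 and 42.6. PPAT was level, at 9.17 and 9.03, as was LTB at 0.878 and 0.837, while RDH10 was at 8.66 and 6.01 and LURAP1 at 3.73 and 1.42. Whether reads were assigned by strand when these levels were made is not given in the sources used here, so reads of a member and of an overlapping neighbour cannot be told apart where they overlap. The stretch covered by the calf form alone overlapped another Ensembl gene in 5 members, against 12 of the 92 genes. These were MGC148714 with RGS22, at 1.65 FPKM in calf 1 and calf 2 and 52.5 in the bulls, PCCB with STAG1 and ENSBTAG00000052750, HIST2H2BE with HIST2H2AC and ENSBTAG00000040098, NADK2 with SKP2, and POMGNT1 again with LURAP1. The loci of RGS22, HIST2H2AC, SKP2 and LURAP1 also overlapped the bull form of their member.

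Proteins that choose promoters, splice sites and polyadenylation sites are not members, and their levels were compared between the groups with limma on log2(FPKM + 1) over 18115 genes. The SE and adjusted p of each gene below come from all 6 libraries, with calf 3 among the calves. Of all genes tested, 35.7% passed as higher in the bulls and 9.61% as lower (a change of 1 or more on the log2 scale with an adjusted p under 0.05). Without calf 3, these shares were 37.9% and 13.6%. The median log2 fold change of all genes was 0.43 and shifted to -0.26 after quantile normalization, so a list is read against that median.

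Of 48 splicing regulators, 39 were tested, 6 rose (15.4%) and 4 fell (10.3%), with a median log2 fold change of 0.02. KHDRBS3, an RNA binding protein of the STAR family, rose by 4.33 (SE 0.20, adjusted p 1.90e-05), from 7.51, 9.77 and 12.4 FPKM in the calves to 213, 218 and 211 FPKM in the bulls. RBMXL2, a germ cell relative of RBMX, rose by 4.08 (SE 0.72, adjusted p 0.00385) and was listed at 0 in calf 3, without which the change was 3.22. SRSF12, a protein of the SR family, rose by 3.38 (SE 0.29, adjusted p 0.000184). RBMX itself, on the X chromosome, fell by 2.13 (SE 0.17, adjusted p 0.000153), with 56.6, 59.6 and 53.3 FPKM in the calves and 9.79, 13.5 and 13.5 FPKM in the bulls. TIA1, which binds U-rich RNA, fell by 1.51 (adjusted p 0.000443) and MBNL2, of the muscleblind family, by 1.44 (adjusted p 0.00436). The share of splicing regulators that rose was below that of all genes, and the share that fell was close to it. RBMXL2 and RBMX are similar in sequence, and reads could be split between them.

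Of 21 factors of 3′ end processing, which cleave the RNA and add the poly(A) tail, 7 rose (33.3%) and 1 fell (4.76%), with a median of 0.48, both near the shares of all genes. PAPOLB, the poly(A) polymerase of the testis, rose by 4.24 (SE 0.28, adjusted p 7.24e-05), from 3.29, 3.12 and 6.95 FPKM in the calves to 91.6, 103 and 97.1 FPKM in the bulls. CLP1, an RNA kinase bound to a cleavage factor, rose by 2.36 (SE 0.26, adjusted p 0.000546) and SYMPK, a scaffold of the cleavage complex, by 2.29 (SE 0.18, adjusted p 0.000128). CPSF6, a subunit of a cleavage factor known to favour distal sites, fell by 1.24 (SE 0.14, adjusted p 0.000610).

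Of 22 transcription regulators of germ cells and variants of general factors, 19 were tested, 14 rose (73.7%) and 0 fell, with a median of 2.52. CREM, an activator of spermatid genes, rose by 5.13 (SE 0.14, adjusted p 4.27e-06), from 2.92, 3.56 and 2.83 FPKM in the calves to 140, 149 and 139 FPKM in the bulls. GTF2A1L, a germ cell variant of the general factor TFIIA, rose by 4.92 (SE 0.26, adjusted p 3.02e-05). BRDT, a bromodomain protein that binds acetylated histones in germ cells, rose by 3.94 (SE 0.16, adjusted p 1.29e-05). Genes of this list are known from germ cells, whose markers differed between the groups as given above. The part of any of these regulators in the change of form was not tested. Without calf 3, the numbers were 7 higher and 5 lower among splicing regulators, 7 and 1 in 3′ end processing, and 13 and 0 in germ cell transcription, where ATF1 no longer passed.

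**Figure D5:**
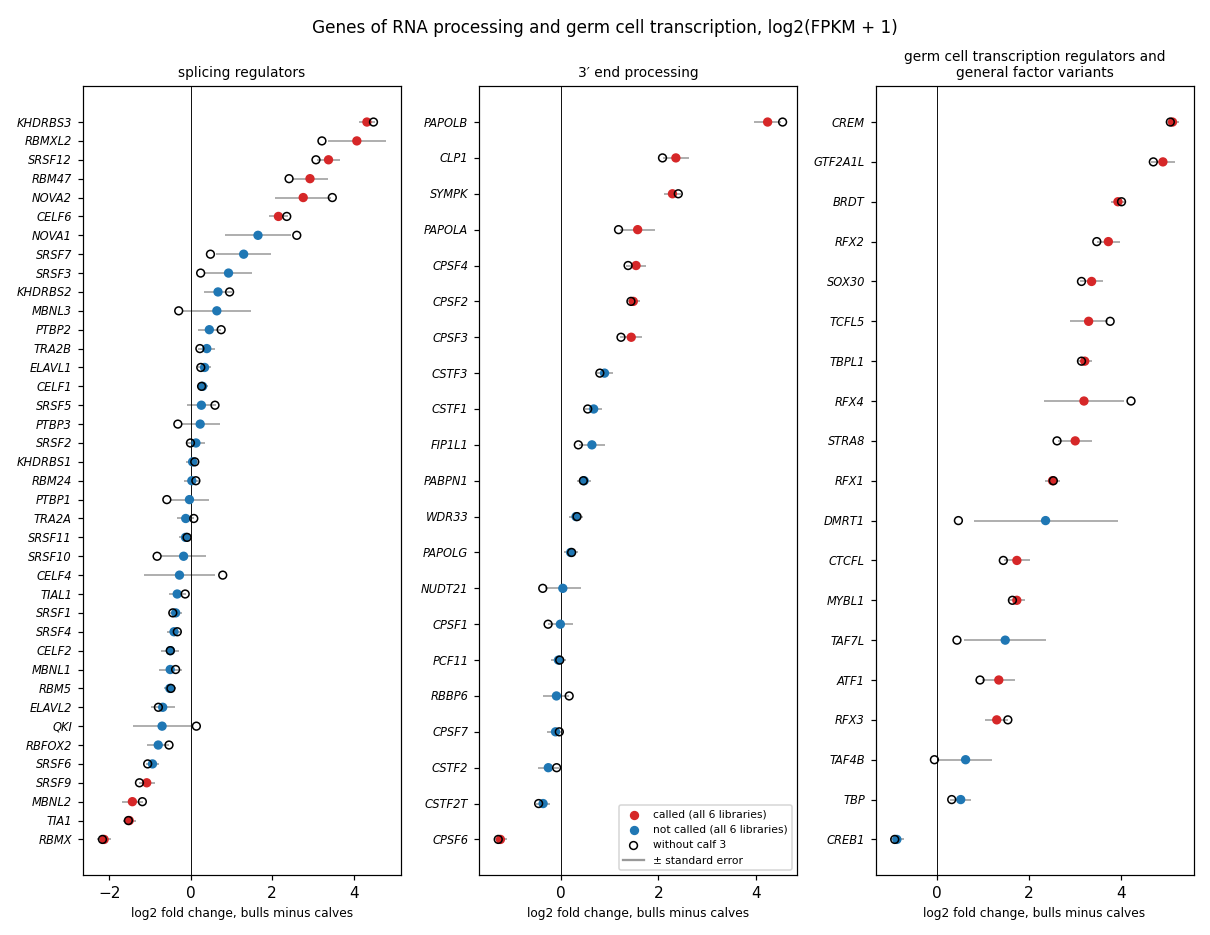
Log2 fold change of bulls against calves (x axis, on log2(FPKM + 1)) for the tested genes of the lists of splicing regulators, 3′ end processing and germ cell transcription (y axis), in red where the gene passed the test, with the standard error as a bar and the value without calf 3 as an open circle. The germ cell list lies to the right with a median of 2.52, while the splicing list is centred near 0.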

How the data were processed

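Total RNA of 6 testis samples was sequenced by the authors after ribosomal RNA was removed. According to the Methods, reads were filtered, mapped with TopHat2 and assembled with StringTie, and the tool behind the levels of linear transcripts is not given in the sources used here. The authors deposited FPKM values per gene and per transcript for each library, that is, fragments corrected for transcript length and library size, with a locus but no counts, strand, exons or sequences. The depth behind a value is therefore unknown, and estimates of FPKM for forms that share most exons depend on few distinguishing reads. UMD3.1.1 is the assembly in the Methods, but 99.4% of the 17552 symbols shared with RefSeq on the ARS-UCD2.0 assembly overlapped the gene of the same symbol there, so positions are as the table gives them, on an ARS-UCD assembly. No sequence is printed, since the tables used here hold none.

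The members were found in Python 3.11.15 with pandas 2.3.3 from the mean FPKM of calf 1 and calf 2 and of the 3 bulls. A form was compared with the other form of its gene as a share of their sum. The members, the regulator lists and the marker lists were chosen with earlier results of these data known. Values per library were planned for the first 24 members by the summed log2 ratio of the forms in both groups, and the other 5 are given too. Ends within 100 bases were taken as the same. Regulators were tested with limma 3.58.1 in R 4.3.3 on log2(FPKM + 1), for genes at 1 FPKM or more in at least 3 of the 6 libraries, with an empirical Bayes trend and Benjamini-Hochberg adjustment over the 18115 genes. A gene passed when its adjusted p was under 0.05 and its change was 1 or more on the log2 scale, on which the pseudocount of 1 understates changes of low genes. The 3 genes of largest change in each direction are named per list. The procedure was tested on simulated data whose spread was taken from calf 1, calf 2 and the bulls, so it does not cover the spread that calf 3 adds. The labels give the samples as separate animals, and p-values measure the spread between the libraries. In the main test that spread includes calf 3, whose label is in doubt, so it also holds the distance of that library from calf 1 and calf 2. Alternatives covered the limits of the rule, the use of calf 3, each library left out, a common median scaling, Ensembl transcripts alone, and, for the regulators, the pseudocount, the filter, quantile normalization, array weights and the replicate block.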

Additional observations from a re-analysis of the deposited data

Results flagged for a closer look

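In 12 of the 29 members, the bull form was higher in calf 3, which the rule did not use, than in both calf 1 and calf 2. The same count over the 1956 genes was not made, so the 12 are not read as a trait of the members. Some of these levels were near 0 in calf 3, as in AIF1 (0.0550 FPKM), NADK2 (0.0333 FPKM) and STARD10 (0.0109 FPKM). In 3 of the 12, the bull form was also higher than the calf form in calf 3 itself. MGC148714-201 was at 209 FPKM in calf 3, against 13.6 in calf 1 and 8.79 in calf 2, and within the range of the bulls. HMGB3-201 was at 3.05 FPKM in calf 3 and listed at 0 in calf 1 and calf 2, below the lowest bull at 10.3. PCCB-204 was at 6.18 FPKM in calf 3, against 0.0207 in calf 1 and 0.577 in calf 2, and below the lowest bull at 10.9. The label of calf 3 is in doubt, and why it held these forms was not tested.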

How the results depend on the processing

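The number of members followed the limits of the rule. It was 54 at 2 times, 21 at 8 times, 61 at 5 FPKM, 10 at 20 FPKM and 14 with Ensembl transcripts alone, and 28 with all 3 calves, 25 of them among the 29. Leaving out each library in turn gave 31 to 34 genes, which shared 24 to 28 with the 29. With transcripts of 1 gene and the same locus summed, 29 genes passed, and 27 were shared, without CMC2 and RBM7. This alternative, the order in each library (26) and 4 times in each library (22) were chosen after seeing the data.

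The median difference in bull form share was 87.1 points. It was 86.8 to 90.6 with a library left out, the highest without calf 1, and 90.2 for shares of the group means. With all 3 calves, the difference was 76.0 points in HMGB3, 60.4 in HIST2H2BE, 32.0 in MGC148714 (48.0 as chosen) and 36.0 in PCCB (53.5). A single calf decided 3 genes. In PRPS2 (49.3) it was -0.00604 points without calf 2, where the calf form was listed at 0, and 98.6 without calf 1. In MGC148714 it was 0 without calf 2 and 96.0 without calf 1, and in PCCB 7.14 without calf 1 and 99.8 without calf 2. With shares of the group means, these 3 genes were at 94.1, 90.4 and 97.8.

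Under quantile normalization, 11 splicing regulators fell against 4, 4 genes of 3′ end processing rose against 7 and 2 fell against 1, and 1 germ cell regulator fell against 0. With a library left out, 5 to 7 splicing regulators rose and 3 to 5 fell. The 13 named regulators kept their direction and side of the threshold in all alternatives run. Same-numbered calves and bulls did not deviate together (r of 0.0277, 0.0246 and 0.0341). These deviations were taken from group means that included calf 3, so the check could have missed a factor shared by same-numbered samples. The replicate block left the counts at 6 and 4, 7 and 1, and 14 and 0, in the order of the lists above. A repeat on longer transcripts alone was not run, since the table gives no transcript length. FPKM values without counts give no counting error for any form.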
